A study of Mus musculus with 6 samples.

Results

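Collagen chain genes were followed across bulk RNA-Seq libraries of lateral cortex from 6 female c57/bl6 mouse embryos at embryonic day 12.5. Members were the rows of the deposited count table whose Ensembl identifier belongs, in GENCODE M21, to a protein-coding gene named Col, a number, a and a number. This gave 43 of the 17068 genes in the table, all of which had passed the authors' filter on low counts, and Col10a1, the other chain of the 44 placed in the class lists, was not analysed here. They were divided into 11 fibrillar chains, 4 chains of the vascular basement membrane (Col4a1, Col4a2, Col15a1 and Col18a1) and 28 other chains. The 4 controls carried no Cre, and by their labels controls 1, 2 and 4 were Foxp1 fl/+ while control 3 was Foxp1 fl/fl. The 2 libraries labelled Foxp1cKO were Foxp1 fl/fl;Emx1Cre, in which the Cre is driven by the Emx1 locus, which is active in progenitors of the dorsal telencephalon. All 6 embryos therefore carried at least 1 floxed Foxp1 allele, and none was wild type at the locus. The comparison asks whether chain genes differed under the Foxp1cKO label from those of Cre-negative embryos.

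Collagens are secreted proteins built from 3 alpha chains wound into a triple helix. Fibrillar collagens form the banded fibres of connective tissue, and in the embryonic brain they are known mainly from the meninges and from cells around vessels. Collagen IV forms the sheet-like network of basement membranes under the pia and around blood vessels, and the chains of collagens XV and XVIII belong to the same membranes. The remaining families bind to fibrils, form beaded filaments or span the cell membrane, and many of them are best known from cartilage, skin or muscle.

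Counts on genes summed to 50076008 in the smallest and 78346979 in the largest library, so that 3 counts corresponded to 0.0381 to 0.0596 CPM (counts scaled to a common library size after TMM normalization), which covers counting error only. Foxp1 itself averaged 67.7 ± 9.18 CPM over the controls (SD, n = 4) but 79.96 ± 4.52 CPM under the Foxp1cKO label (SD, n = 2), a log2 fold change of 0.24 (SE 0.129, adjusted p = 0.468 by edgeR's quasi-likelihood test, adjusted by Benjamini and Hochberg's method over all genes). The count over the whole gene was thus not lower under the Foxp1cKO label, and groups are called by their labels throughout. The radial glia markers summed to 2087 to 2511 CPM in the controls and 2303 to 2352 CPM in the libraries labelled Foxp1cKO, and the neuron markers to 2593 to 4678 and 3376 to 3447 CPM. Sox2 and Tubb3, from these lists, were not analysed here. Of the 7 radial glia markers, 0 passed the test. At an unadjusted p under 0.05, Slc1a3 was higher (log2 fold change 0.37) and Fabp7 lower (-0.43), where 13.03% of all genes met that level in either direction. The lists also marked the other cells in the dissected tissue. Of these lists, those of meningeal fibroblast, endothelial and pericyte genes are given below beside collagen chains.

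No collagen chain gene passed the test between the groups. In edgeR's quasi-likelihood test 0 of the 43 members had an adjusted p under 0.05 in either direction, against 26 of all 17068 genes (0.152%), and DESeq2's Wald test and limma also called 0. At an unadjusted p under 0.05, 3 members were higher in the libraries labelled Foxp1cKO and 0 were lower, where 6.53% of all genes were higher and 6.5% lower. DESeq2 and limma each gave the same 3 members. Both libraries labelled Foxp1cKO lay above all 4 controls for 5 members (Col11a1, Col12a1, Col14a1, Col20a1 and Col4a3) and below all of them for 0, where 11.5% of all genes lay above and 13.1% below. The count of higher members was therefore near the level of the whole table. The median log2 fold change was -0.09 over the 43 members, -0.10 over the fibrillar, 0.02 over the vascular basement membrane and -0.07 over the other chains, beside -0.00445 over all genes.

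**Figure D1:**
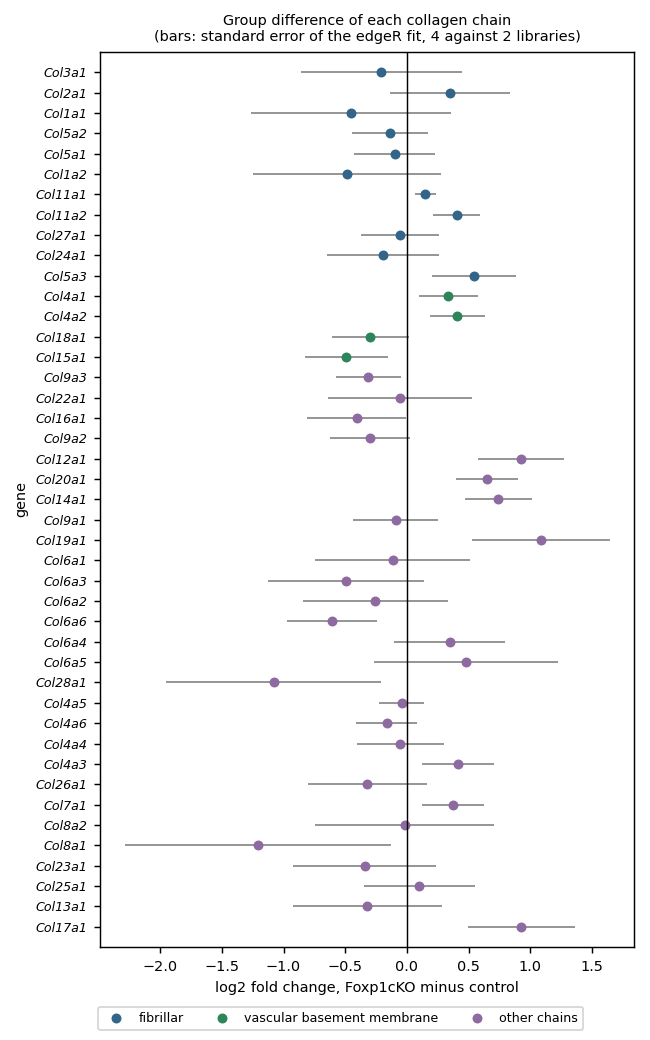
Log2 fold change (libraries labelled Foxp1cKO minus controls, x axis) of the 43 collagen chain genes (y axis), coloured by class; bars are the standard error of the edgeR fit over 4 control and 2 Foxp1cKO libraries. Values run from -1.21 for Col8a1 to 1.08 for Col19a1, and 0 of the 43 passed an adjusted p of 0.05.

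The chains varied widely among the controls. For 30 of the 43 members the SD of log2 CPM over the 4 controls exceeded the size of the log2 fold change (69.8%, beside 54.7% of all genes), and for 29 the highest control was more than 2-fold above the lowest. The median ratio of highest to lowest control was 2.35 over the members and 1.37 over all genes. It was 2.35 in the fibrillar, 2.07 in the vascular basement membrane and 2.72 in the other chains, and reached 5.2 in the beaded filament chains. All 43 chains together took 0.160%, 0.0930%, 0.0660% and 0.127% of the counts in controls 1 to 4 and 0.0968% and 0.135% in the libraries labelled Foxp1cKO 1 and 2. Control 3 gave the lowest value of the 6 libraries for 23 members, where it was lowest for 22.3% of all genes, and control 1 gave the highest for 17. Control 3 was also the single Foxp1 fl/fl control, so its genotype and its library cannot be told apart.

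**Figure D2:**
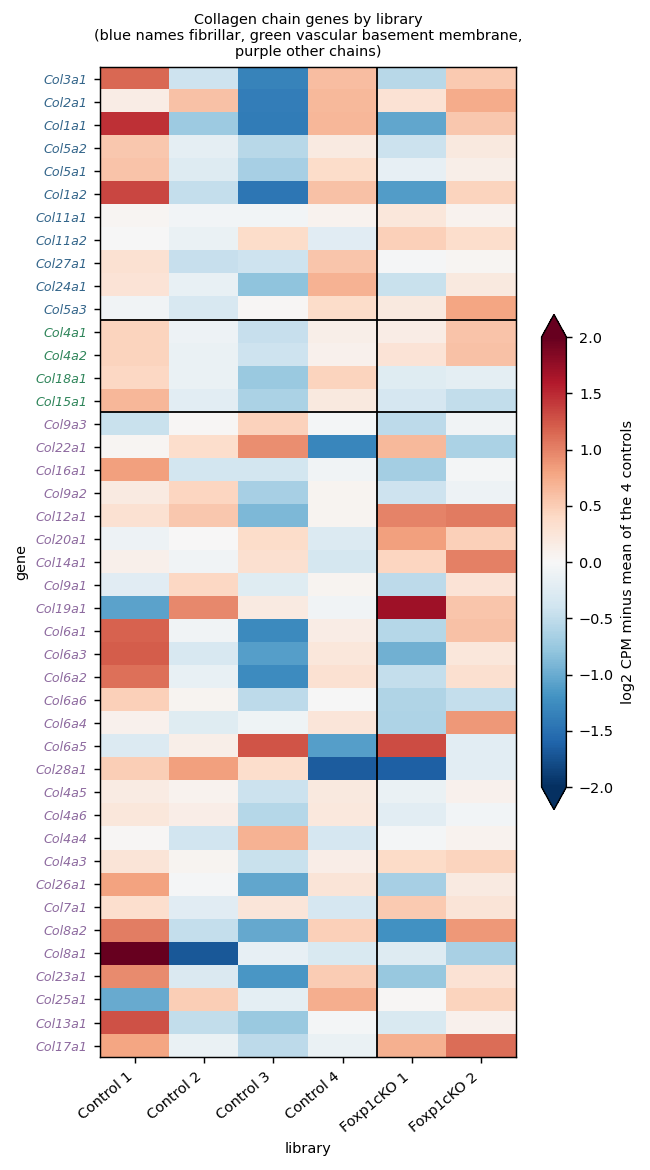
Log2 CPM of each of the 43 collagen chain genes (rows, by class) in each library (columns), as the difference from the mean of the 4 controls; the colour scale ends at 2 log2 units either way, which 1 of the 258 cells exceeded. The rows of Col1a1, Col1a2, Col3a1, Col6a1, Col6a2 and Col6a3 are red in control 1 and blue in control 3, while Col6a5, Col28a1 and Col11a2 are red in control 3, and the line between controls and Foxp1cKO separates no class.

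A single ordering of the libraries recurred across many chains. Controls 1 and 4 and the library labelled Foxp1cKO 2 were the 3 highest libraries for 17 members (39.5%), a pattern that was picked out after the values were seen and that 7.04% of all genes had. It held for 7 of the 11 fibrillar chains, 4 of the 7 beaded filament chains, 0 of the 4 vascular basement membrane chains and 1 of the 9 fibril-associated (FACIT) chains. The meningeal fibroblast markers had it for 9 of the 10 genes in the table, and they summed to 129, 66.3, 42.1 and 114 CPM in controls 1 to 4 and to 75.1 and 96.7 CPM in the libraries labelled Foxp1cKO 1 and 2. No meningeal marker passed the test, and their median log2 fold change was -0.08. Twist2 alone among them was at 0 in a library (control 3) and stayed under 1 CPM in every library, and Foxc2 was not analysed here. The part that meningeal tissue had in the collagen values was not tested. In bulk tissue, fewer cells of a type and less RNA per cell cannot be told apart.

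Among the fibrillar chains, Col3a1 had the highest level per length, a mean of 15.8 CPM per kilobase of exon. Col3a1 (ENSMUSG00000026043.18, chromosome 1, 45311538 to 45349706, plus strand, GRCm38) encodes the chain of collagen III, a meningeal ligand of the receptor Adgrg1 in the developing cortex. The 150 bases before its start, from RefSeq (GRCm38.p6, chr1:45311388-45311537, plus strand, outside annotated exons), are shown because the gene leads the fibrillar class, with the single match to the TATA box letters TATAAA in capitals.
Col3a1: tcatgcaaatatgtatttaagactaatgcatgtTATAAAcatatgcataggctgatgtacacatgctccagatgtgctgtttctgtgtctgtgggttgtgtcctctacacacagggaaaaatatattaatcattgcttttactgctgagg
Over both strands, TATAAA was present in the 250 bases upstream of 4 of the 34 members with a RefSeq promoter (11.8%) and of 14.3% of 27025 genes. GGGCGG, the GC box, was present in 21 of the 34 (61.8%) and in 35.4% of all genes. A match of these letters is a description of the window and not a site.

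Col3a1 was 294, 99.2, 52.4 and 204 CPM in controls 1 to 4 and 90.5 and 191 CPM in the libraries labelled Foxp1cKO 1 and 2. Controls 1 and 4 and Foxp1cKO 2 were high, the other 3 libraries were low, and the groups overlapped. The means were 162 ± 108 CPM (SD, n = 4) and 141 ± 70.7 CPM (SD, n = 2), with a log2 fold change of -0.21 (SE 0.653, adjusted p = 0.923 by edgeR).

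Col1a1 (ENSMUSG00000001506.10, chromosome 11, 94936224 to 94953042, plus strand) encodes the alpha 1 chain of collagen I, the main collagen of bone and skin. It was 94.4, 20.7, 13.05 and 54.3 CPM in controls 1 to 4 and 16.7 and 49.9 CPM in the libraries labelled Foxp1cKO. Its highest control was 7.24-fold above its lowest, and both Foxp1cKO values fell inside that range. The log2 fold change was -0.45 (SE 0.811, adjusted p = 0.850 by edgeR). Its sign, like that of Col3a1, turned when control 1 or Foxp1cKO 1 was left out (0.17 and 0.13 for Col1a1, 0.24 and 0.23 for Col3a1).

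Col2a1 (ENSMUSG00000022483.17, chromosome 15, 97975602 to 98004695, minus strand) encodes the chain of collagen II, the major collagen of cartilage. It was 71.5, 97.0, 24.8 and 101 CPM in controls 1 to 4 and 78.9 and 108 CPM in the libraries labelled Foxp1cKO. Control 3 stood below the other libraries, and the other 5 lay close together. Its log2 fold change was 0.35 (SE 0.489, adjusted p = 0.799 by edgeR), but it was 0.047 without control 3 and 0.087 without Foxp1cKO 2. Of 7 chondrocyte markers only 2 were in the table, and both stayed under 1 CPM in every library, with a sum of 0.137 to 0.549 CPM.

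The other 8 fibrillar chains ranged in mean level over the 6 libraries from 0.361 CPM for Col5a3 to 55.6 CPM for Col5a2. Col11a1, a chain of the thin fibrils of cartilage and other tissues, was the steadiest of all members among the controls, with a highest-to-lowest ratio of 1.09. It was 42.6, 40.3, 40.4 and 43.7 CPM in the controls and 48.8 and 43.8 CPM in the libraries labelled Foxp1cKO, which lay just above all controls. Its log2 fold change was 0.15 (SE 0.0827, adjusted p = 0.481 by edgeR). Col1a2, the partner of Col1a1, ranged from 16.6 to 114 CPM in the controls and was 21.02 and 61.7 CPM in the libraries labelled Foxp1cKO. Col5a1 and Col5a2, whose collagen V chains regulate fibril width, had smaller control ranges of 2.35-fold and 2.13-fold. The lowest adjusted p among the fibrillar chains was 0.417.

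**Figure D3:**
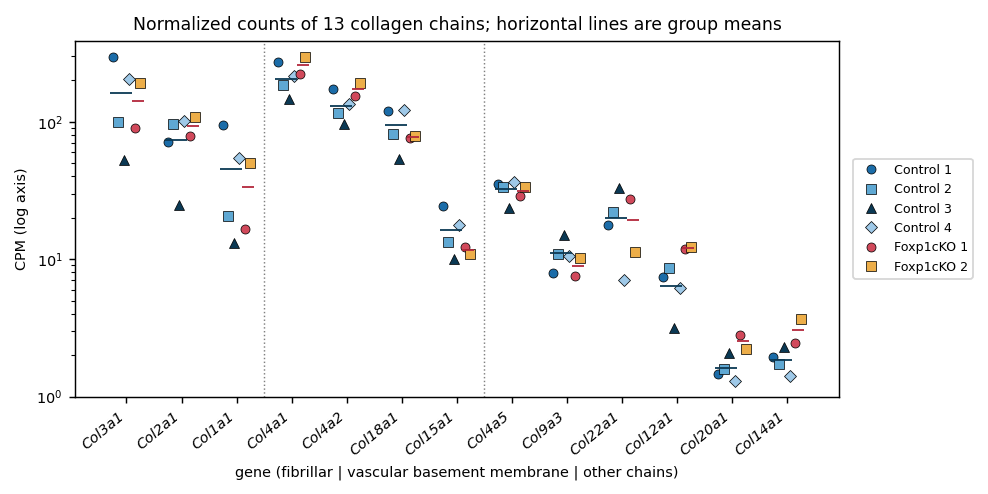
CPM (y axis, log scale) of 13 collagen chains (the leading fibrillar and other chains by level per length, the vascular basement membrane chains and those with an unadjusted p under 0.05), in 4 controls (blue) and 2 libraries labelled Foxp1cKO (red circle and yellow square); horizontal lines are the group means. Control 3 (dark triangle) is lowest for all 3 fibrillar and all 4 vascular basement membrane chains, and both Foxp1cKO libraries lie above all controls for Col12a1, Col20a1 and Col14a1 among those drawn.

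Col4a1 and Col4a2 had the highest levels per length of all members, 29.9 and 21.8 CPM per kilobase of exon. This order depends on the length used. In mean CPM, Col3a1 (155) ranked between Col4a1 (223) and Col4a2 (144). The pair encodes the alpha 1 and alpha 2 chains of the collagen IV found in nearly every basement membrane, that of vessels included. The genes lie head to head on chromosome 8, Col4a1 on the minus strand (ENSMUSG00000031502.11, 11198423 to 11312826) and Col4a2 on the plus strand (ENSMUSG00000031503.13, 11312805 to 11449287), and their annotated starts overlap by 22 bases. That shared stretch (RefSeq, GRCm38.p6, chr8:11312805-11312826, plus strand) is shown because the pair is transcribed away from it in both directions.
Col4a1 and Col4a2: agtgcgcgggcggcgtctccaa

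Col4a1 was 272, 186, 146 and 217 CPM in controls 1 to 4 and 221 and 297 CPM in the libraries labelled Foxp1cKO 1 and 2. Foxp1cKO 2 was the highest library and control 3 the lowest, but control 1 exceeded Foxp1cKO 1, so the groups overlapped. The means were 205 ± 53.1 CPM (SD, n = 4) and 259 ± 53.5 CPM (SD, n = 2), with a log2 fold change of 0.34 (SE 0.239, adjusted p = 0.575 by edgeR).

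Col4a2 was 174, 116, 95.7 and 135 CPM in controls 1 to 4 and 154 and 192 CPM in the libraries labelled Foxp1cKO. The order of the libraries was that of Col4a1, again with overlap through control 1. The log2 fold change was 0.41 (SE 0.224, adjusted p = 0.477 by edgeR), the lowest adjusted p of the class. Neither chain passed an adjusted p of 0.05 under any alternative fit, where their log2 fold changes were 0.09 to 0.53 for Col4a1 and 0.23 to 0.56 for Col4a2.

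Col18a1 (ENSMUSG00000001435.15, chromosome 10, 77052178 to 77166548, minus strand) encodes the chain of collagen XVIII, whose C-terminal fragment is endostatin. It was 120, 81.8, 54.0 and 123 CPM in controls 1 to 4 and 75.6 and 78.7 CPM in the libraries labelled Foxp1cKO. Both of the latter lay between controls 3 and 2, and below controls 1 and 4. Its log2 fold change was -0.30 (SE 0.315, adjusted p = 0.723 by edgeR). The gene overlaps Slc19a1 on the other strand over 8825 bases, and the strand setting of the counting is not given in the sources used here.

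Col15a1 (ENSMUSG00000028339.17, chromosome 4, 47208161 to 47313167, plus strand) encodes the related chain of collagen XV. It was 24.6, 13.3, 9.99 and 17.7 CPM in controls 1 to 4 and 12.4 and 11.0 CPM in the libraries labelled Foxp1cKO, both between controls 3 and 2. The log2 fold change was -0.49 (SE 0.338, adjusted p = 0.563 by edgeR). The 4 chains of the vascular basement membrane thus had fold changes of both signs, positive for both collagen IV chains and negative for the chains of collagens XV and XVIII, and none of them passed the test.

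Markers of vessel cells are given beside the collagen IV pair. The 15 endothelial markers summed to 281, 190, 182 and 226 CPM in controls 1 to 4 and to 254 and 311 CPM in the libraries labelled Foxp1cKO, overlapping through control 1 as the pair did. Of them, Flt1 alone passed the test, with a log2 fold change of 1.64 (SE 0.159, adjusted p = 0.0179 by edgeR), and their median was 0.11. Of the 15, 11 had a positive and 4 a negative log2 fold change. An unadjusted p under 0.05 was reached by 3, all higher (13.03% of all genes, in either direction). These 3, Flt1, Pecam1 (0.65) and Mmrn2 (0.60), also lay above all controls in both libraries labelled Foxp1cKO (11.5% of all genes). Emcn and Eng had 0.52 and 0.43, with overlap. Cdh5, Cldn5, Esam and Robo4 had log2 fold changes of -0.05 to 0.06, while Tek and Tie1, at -0.35 and -0.29, were lowest in Foxp1cKO 1 (genes chosen after their values were seen). The 8 pericyte markers summed to 202 to 246 CPM in the controls and to 302 and 310 CPM in the libraries labelled Foxp1cKO, without overlap, unlike the collagen IV pair. Notch3 held the largest part of this sum. It averaged 135 of 229 CPM in the controls and 172 of 306 CPM under the Foxp1cKO label. Of the 8, 0 had an adjusted p under 0.05, 4 had an unadjusted p under 0.05 (13.03% of all genes, in either direction) and 4 lay above all controls in both libraries labelled Foxp1cKO (11.5% of all genes). The ratio of the summed collagen IV pair to the endothelial sum stayed between 1.32 and 1.59 in the controls and was 1.47 and 1.57 in the libraries labelled Foxp1cKO. That overlap rested on Flt1, which was left out in a further ratio after its value was seen. Leaving out the marker called higher by itself lifts the ratio under the Foxp1cKO label relative to the controls. Without Flt1 the ratio was 1.69, 1.73, 1.42 and 1.69 in controls 1 to 4. It was 1.79 and 1.90 in the libraries labelled Foxp1cKO, both above every control, as were 11.5% of all single genes. The part that vessel content had in the collagen IV values was not tested.

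**Figure D4:**
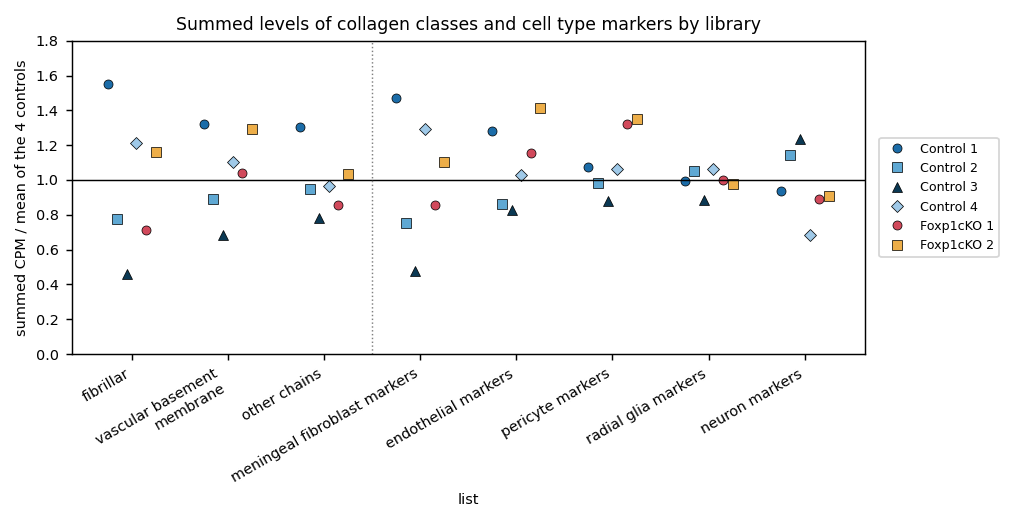
Summed CPM of the 3 collagen classes (left of the dotted line) and of 5 cell type marker lists (right), each divided by the mean of the 4 controls (y axis, from 0), by library. The fibrillar and meningeal fibroblast sums both have controls 1 and 4 and Foxp1cKO 2 highest and control 3 lowest, while the pericyte sum is higher in both Foxp1cKO libraries than in any control.

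Fibrillar and vascular chains took different shares of the collagen counts from library to library. Fibrillar chains made up 49.4%, 41.5%, 34.9% and 48.5% of all collagen CPM in controls 1 to 4 and 37.3% and 44.0% in the libraries labelled Foxp1cKO 1 and 2. The vascular basement membrane chains made up 37.1%, 42.0%, 45.8% and 38.9% in the controls and 48.0% and 43.3% in the libraries labelled Foxp1cKO. The summed CPM of the 3 fibrillar genes Col1a1, Col1a2 and Col3a1 varied 6.13-fold over the controls, against 1.85-fold for the sum of Col4a1 and Col4a2. The ratio of the latter sum to the former was 0.885, 1.98, 2.94 and 1.08 in controls 1 to 4 and 2.92 and 1.62 in the libraries labelled Foxp1cKO, so that the groups overlapped. With 4 libraries against 2, the smallest two-sided p of an exact permutation test of such a value is 0.133, and none was run.

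The 3 members with an unadjusted p under 0.05 were all FACIT chains, which lie on the surface of fibrils. Col12a1 (ENSMUSG00000032332.17, chromosome 9, 79598991 to 79718831, minus strand), of collagen XII, was 7.36, 8.63, 3.16 and 6.20 CPM in controls 1 to 4. It was 11.8 and 12.3 CPM in the libraries labelled Foxp1cKO, both above every control. Its log2 fold change was 0.93 (SE 0.349, adjusted p = 0.350 by edgeR), and it ranged from 0.59 to 1.11 over the alternative fits. The adjusted p of Col12a1 over those fits, other than the crossed pairing of replicate numbers, was 0.143 to 0.885.

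Col14a1 (ENSMUSG00000022371.16, chromosome 15, 55307750 to 55520803, plus strand), of collagen XIV, was 1.94, 1.72, 2.28 and 1.41 CPM in controls 1 to 4. It was 2.44 and 3.68 CPM in the libraries labelled Foxp1cKO, where Foxp1cKO 1 stood only slightly above control 3. The log2 fold change was 0.74 (SE 0.270, adjusted p = 0.343 by edgeR), the lowest adjusted p of all members. It was 0.39 without Foxp1cKO 2 and 1.00 without Foxp1cKO 1.

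Col20a1 (ENSMUSG00000016356.18, chromosome 2, 180986535 to 181018363, plus strand), of collagen XX, was 1.47, 1.59, 2.06 and 1.31 CPM in controls 1 to 4. It was 2.82 and 2.23 CPM in the libraries labelled Foxp1cKO, both above control 3, the highest control. Its log2 fold change was 0.65 (SE 0.250, adjusted p = 0.356 by edgeR). With 1 library left out, its log2 fold change ran from 0.47 to 0.79. Col12a1 and Col14a1 overlap antisense or other transcripts on the opposite strand.

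None of the other 6 FACIT chains had an unadjusted p under 0.05. Their log2 fold changes ran from -0.41 for Col16a1 to 1.08 for Col19a1, and the median over all 9 was -0.06. Col22a1 (ENSMUSG00000079022.10, chromosome 15, 71795795 to 72034227, minus strand), a chain known from tissue junctions such as those of muscle and tendon, was among the 3 other chains of highest level per length. It was 17.9, 22.1, 33.1 and 7.02 CPM in controls 1 to 4 and 27.3 and 11.2 CPM in the libraries labelled Foxp1cKO. Control 3 was its highest library and control 4 its lowest, unlike Col3a1 and Col1a1, which were lowest in control 3 and highest in control 1. The log2 fold change was -0.06 (SE 0.584, adjusted p = 0.978 by edgeR).

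Col9a3 (ENSMUSG00000027570.15, chromosome 2, 180597790 to 180622189, plus strand), a chain of cartilage collagen IX, was 7.89, 11.0, 14.9 and 10.5 CPM in controls 1 to 4 and 7.51 and 10.3 CPM in the libraries labelled Foxp1cKO. It too was highest in control 3, and the groups overlapped. The fitted log2 difference was -0.31 (SE 0.265, adjusted p = 0.642 by edgeR). It was not matched by Col9a1 and Col9a2, with which it forms collagen IX, since these averaged 0.812 and 2.33 CPM.

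Col4a5 (ENSMUSG00000031274.16, chromosome X, 141475385 to 141689234, plus strand), the collagen IV chain affected in X-linked Alport syndrome, was 35.5, 33.5, 23.6 and 36.4 CPM in controls 1 to 4 and 28.9 and 33.7 CPM in the libraries labelled Foxp1cKO. Foxp1cKO 2 lay between controls 2 and 1, while Foxp1cKO 1 lay above control 3 and below the other controls. The fitted log2 difference was -0.04 (SE 0.182, adjusted p = 0.948 by edgeR). Col4a6, which starts 1308 bases from Col4a5 on the other strand, ranged from 5.93 to 10.4 CPM in the controls and was 7.61 and 8.56 CPM in the libraries labelled Foxp1cKO. The remaining collagen IV chains Col4a3 and Col4a4, known from the kidney glomerulus, averaged 0.559 and 1.69 CPM.

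The beaded filament chains were led by Col6a3, Col6a2 and Col6a1, the chains of collagen VI, with means of 15.9, 9.49 and 7.12 CPM. Their controls spanned 5.0-fold, 5.2-fold and 5.52-fold, and all 3 had controls 1 and 4 and Foxp1cKO 2 as their highest libraries. Their log2 fold changes were -0.49, -0.25 and -0.12 with standard errors of 0.633, 0.587 and 0.629. Col6a4, Col6a5, Col6a6 and Col28a1 averaged 0.185 to 0.479 CPM, and Col28a1 had as few as 2 counts in a library.

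Among the transmembrane chains, Col23a1 and Col25a1 averaged 7.46 and 6.40 CPM. Col25a1, a neuronal membrane collagen needed for muscle innervation by motor neurons, was lowest in control 1 (2.79 CPM) and highest in control 4 (9.33 CPM), and the libraries labelled Foxp1cKO lay between them. Col13a1 and Col17a1 averaged 1.06 and 0.370 CPM. Of the short chain, anchoring and unclassed chains, Col26a1 led with 12.7 CPM and Col8a1 was lowest with 0.583 CPM. In all, 11 of the 43 members averaged under 1 CPM and 7 stayed under 1 CPM in every library, where differences between groups were poorly resolved at this depth.

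In 5 of 6 pairs of chains that assemble together, the ratio varied less over the libraries than either level did. No pair of chains that do not assemble together was set beside them, so this cannot be called particular to partners. The log2 ratio of Col4a1 to Col4a2, per kilobase of exon, was 0.47, 0.51, 0.43 and 0.50 in controls 1 to 4 and 0.35 and 0.46 in the libraries labelled Foxp1cKO. It spanned 0.17 over the 6 libraries, while log2 CPM of the single chains spanned 1.03 and 1.00. The log2 ratio of Col1a1 to Col1a2 was 0.64, 0.26, 0.57 and 0.59 in the controls and 0.59 and 0.61 in the libraries labelled Foxp1cKO, a span of 0.39 beside 2.86 and 2.78 for the single chains.

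The ratio of Col6a1 to Col6a2 spanned 0.43, beside 2.47 and 2.38 for each chain, and that of Col5a1 to Col5a2 spanned 0.37, beside 1.23 and 1.09. The log2 ratio of Col9a1 to Col9a2 spanned 0.84, only slightly less than the 0.98 and 1.11 of the single chains. That of Col9a1 to Col9a3 was the exception, with a span of 1.12 beside 0.98 and 0.99. The groups overlapped in all 6 ratios. The span of a ratio does not depend on the gene lengths used, but its level does: with the longest transcript in place of all exons the mean log2 ratio of Col1a1 to Col1a2 moved from 0.54 to -0.53, and that of Col6a1 to Col6a2 from 0.49 to -0.18.

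**Figure D5:**
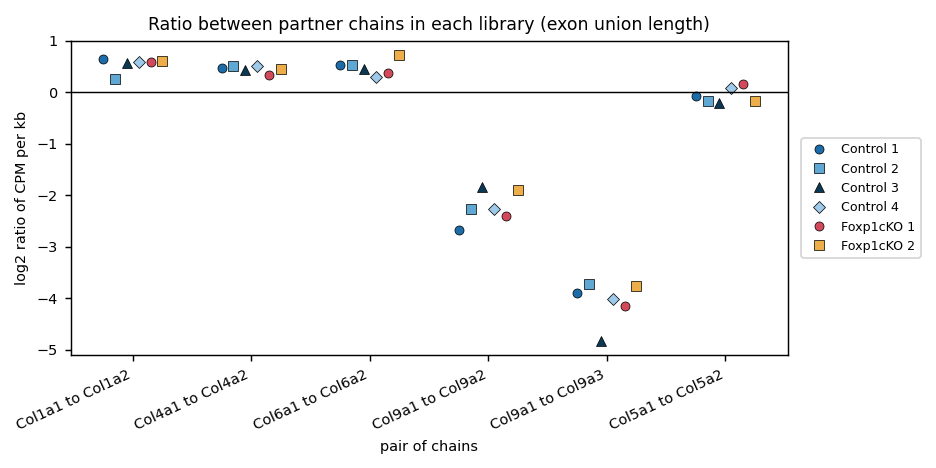
Log2 ratio of CPM per kilobase of exon (y axis) for 6 pairs of chains that assemble together (x axis), with 1 point per library. The 6 points of Col4a1 to Col4a2 lie between 0.35 and 0.51, whereas those of Col9a1 to Col9a3 run from -4.84 to -3.72.

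Genes that modify, export, process and bind collagen chains were taken from 7 lists with 67 genes in the table. Of these, 1 was called higher and 0 lower at an adjusted p under 0.05 by edgeR, beside the 0.152% of all genes. At an unadjusted p under 0.05, 6 were higher (P4ha1, P4ha2, Plod2, Colgalt2, Loxl2 and Itga1) and 2 lower (Bmp1 and Timp2), in all 11.9% of the 67 beside 13.03% of all genes. The median log2 fold change of the 67 was -0.02.

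The called gene was P4ha1 (ENSMUSG00000019916.14, chromosome 10, 59323296 to 59373304, plus strand), a catalytic subunit of the prolyl 4-hydroxylase that lets collagen chains form a stable helix. P4ha1 was 49.1, 45.2, 39.5 and 46.8 CPM in controls 1 to 4 and 99.99 and 138 CPM in the libraries labelled Foxp1cKO 1 and 2. Both Foxp1cKO libraries lay far above every control. The means were 45.1 ± 4.09 CPM (SD, n = 4) and 119 ± 26.6 CPM (SD, n = 2), with a log2 fold change of 1.40 (SE 0.140, adjusted p = 0.0207 by edgeR). The call was lost without control 1, control 2 or Foxp1cKO 2 (adjusted p of P4ha1 0.0956, 0.112 and 0.149 by edgeR) and with the replicate block (0.188 by edgeR), while the log2 fold change stayed between 1.13 and 1.61.

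The 150 bases before the start of P4ha1, from RefSeq (GRCm38.p6, chr10:59323146-59323295, plus strand, outside annotated exons), are shown because it was the called gene of the pathway, with capitals marking the core letters of the hypoxia response element, ACGTG or GCGTG on either strand.
P4ha1: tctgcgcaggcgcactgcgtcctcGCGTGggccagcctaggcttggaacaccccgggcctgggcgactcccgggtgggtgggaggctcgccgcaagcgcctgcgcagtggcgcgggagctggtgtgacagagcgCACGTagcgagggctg
The window holds 1 match of each form. In the 250 bases upstream, at least 1 of the 2 forms was present in 29 of the 47 pathway genes with a RefSeq promoter (61.7%), in 11 of the 34 collagen chain genes (32.4%) and in 41.5% of all genes. Nothing about binding follows from these letters.

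The other enzymes that modify the chains included P4ha2, Plod2 and Colgalt2, each higher at an unadjusted p under 0.05. P4ha2, the alternative catalytic subunit, had a log2 fold change of 1.54 (SE 0.302, adjusted p = 0.206 by edgeR). Plod2, a lysyl hydroxylase, had 0.98 (adjusted p = 0.242 by edgeR), and Colgalt2, a collagen galactosyltransferase, had 0.85 (adjusted p = 0.251 by edgeR). Each of these 3 and P4ha1 lay above all controls in both libraries labelled Foxp1cKO, as did 10 of the 67 pathway genes and 11.5% of all genes. They were picked by their p in the same libraries, so this separation adds no further evidence. P4hb, the subunit that both prolyl 4-hydroxylases share, was 255 to 312 CPM in the controls and 272 and 285 CPM in the libraries labelled Foxp1cKO. DESeq2's Wald test, with its own adjustment, called 6 pathway genes, namely P4ha1, P4ha2, Plod2, Colgalt2 and Loxl2 higher and Bmp1 lower.

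In each of the other roles the gene with the smallest p is given. Loxl2, a lysyl oxidase that cross-links collagen, was 8.59, 7.596, 6.67 and 12.3 CPM in controls 1 to 4 and 25.6 and 22.9 CPM in the libraries labelled Foxp1cKO. Both Foxp1cKO values were above every control, with a log2 fold change of 1.47 (SE 0.233, adjusted p = 0.113 by edgeR). Bmp1, which removes the C-propeptide of fibrillar procollagens, was 62.9 to 74.5 CPM in the controls and 55.4 and 52.7 CPM in the libraries labelled Foxp1cKO, a log2 fold change of -0.37 (adjusted p = 0.242 by edgeR).

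Itga1, the collagen-binding integrin subunit, had a log2 fold change of 0.38 (adjusted p = 0.373 by edgeR). Timp2, an inhibitor of matrix metalloproteinases, had -0.34 (adjusted p = 0.289 by edgeR). Lamc1, a laminin chain of most basement membranes, had 0.28 (adjusted p = 0.431 by edgeR), and Mia3, which loads procollagen into export vesicles, had -0.15 (adjusted p = 0.457 by edgeR). None of these passed the test. Among the 14 basement membrane partners, 12 had a positive fold change (49.3% of all genes did), with a median of 0.19, and 12 were lowest in control 3 (22.3% of all genes). Both counts draw on control 3. Without it 10 of the 14 were positive, beside 47.5% of all genes, with a median of 0.05.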

How the data were processed

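Per the methods and the submitters' processing notes, the authors made libraries with the TruSeq Stranded RNA kit, mapped read pairs with STAR (mm10), obtained gene counts from HTSeq 0.9.1 and dropped genes with low counts. The deposited values used here are whole, unnormalized counts of 17068 genes in 6 libraries. The authors also deposited VST values, on a log2-like scale, which were used only in an alternative with limma. Columns of samples outside the series numbered 0.

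Identifiers were matched to GENCODE M21 without their version (17047 of 17068 found), since 4 members (Col7a1, Col8a1, Col11a2 and Col17a1) carry an older version in the table. Members, gene lists and tests were chosen with earlier results of these data known. Groups came from the sample labels. The test was edgeR 4.0.16's quasi-likelihood test in R 4.3.3, with TMM normalization, group alone, all 17068 genes and Benjamini-Hochberg adjustment at 0.05. The litter in the authors' model was not used here. CPM are TMM-normalized, and log2 CPM used a prior count of 2. Levels per length used the union of exons. The edgeR, DESeq2 and limma fits with group alone were tested on simulated counts with known changes. The simulation gave every gene the same dispersion and changed only genes above a count cut. It therefore does not show how the fits perform for chains that vary widely or have low counts. P-values measure the spread between these embryos' libraries, with 2 in the smaller group.

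Values per library were given for members with an adjusted or unadjusted p under 0.05, for the 3 highest fibrillar and the 3 highest other chains per length and for the 4 vascular basement membrane chains. Pathway genes were named where called or with the smallest p in their role, and P4ha2, Plod2, Colgalt2 and P4hb were chosen after their values were seen, as were the further members with values. Markers were given as lists, with single markers named after their values were seen. Alternatives were DESeq2 1.42.0 (its size factors and its Wald test), total counts, limma 3.58.1, a filter on low counts, each library left out and the replicate block. The crossed block and members matched on the versioned identifier (39 genes) were added after seeing the data, as were the endothelial sum without Flt1 and the count of basement membrane partners without control 3. Of the members, 27 overlap another annotated gene, 17 of them on the other strand, and the strand setting of the counting is not given in the sources used here. Chi-square per gene between libraries of 1 group was 25.9 to 193, so no library was a copy of another.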

Additional observations from a re-analysis of the deposited data

Results flagged for a closer look

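The 4 controls of each of the 43 collagen chain genes were examined for a library that stood apart, by the gap to its nearest neighbour over the whole range of the controls, a rule that chance meets in about 1 of 20 groups. It was met by 2 genes. Col4a6 was 5.93 CPM in control 3 and 9.69 to 10.4 CPM in the other controls. Col8a1, a short chain of endothelial and corneal basement membranes, was 2.03 CPM in control 1 and 0.113 to 0.384 CPM in the other controls.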

How the results depend on the processing

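The count of collagen chain genes called, 0 higher and 0 lower, held under every alternative except the crossed replicate block. Deviations from the group means correlated at -0.198 and 0.0157 between same-numbered libraries, and at 0.198 and -0.0157 between the crossed pairs. With 2 libraries labelled Foxp1cKO, their deviations mirror each other, so the crossed values only turn the sign. These correlations therefore cannot show whether the replicate numbers pair the libraries. With the replicate block 0 of all 17068 genes were called, 0 of the pathway genes among them. There control 3 and control 4 each formed a block alone, so the group difference rested on controls 1 and 2 and the 2 libraries labelled Foxp1cKO. In that edgeR fit 4 members had an unadjusted p under 0.05, where 17.7% of all genes did. The crossed pairing called 1301 genes, among them 4 members, all lower, and 9 pathway genes. DESeq2's Wald test called 6 pathway genes where edgeR called 1, out of 507 and 26 genes in all. With 1 library left out, calls over all genes ran from 2 to 96 and pathway calls from 0 to 2 (0 without control 1, control 2 or Foxp1cKO 2), and the causes were not tested. The median log2 fold change of the other chains ran from -0.524 (without Foxp1cKO 2) to 0.076 (without Foxp1cKO 1), of the fibrillar chains from -0.29 to 0.14 and of the vascular basement membrane chains from -0.16 to 0.15. The sign of Col1a1 turned without control 1 (0.17) or Foxp1cKO 1 (0.13), within a range of -1.46 to 0.17. That of Col3a1 turned without the same libraries (0.24 and 0.23; range -0.86 to 0.24), that of Col22a1 without control 3 (0.28) or Foxp1cKO 2 (0.43; range -0.83 to 0.43) and that of Col4a5 without control 4 (0.024) or Foxp1cKO 1 (0.066; range -0.18 to 0.066). With 1 library left out, the log2 fold change ran from 0.047 to 0.56 for Col2a1, 0.39 to 1.00 for Col14a1, -0.68 to -0.25 for Col15a1, -0.50 to -0.14 for Col18a1 and -0.58 to -0.11 for Col9a3. With the longest transcript in place of all exons, the mean log2 ratios moved to -0.53 for Col1a1 to Col1a2, -0.18 for Col6a1 to Col6a2, 0.59 for Col4a1 to Col4a2 and -0.58 for Col5a1 to Col5a2. Counting depth limits the 11 members that averaged under 1 CPM.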
